A study of Homo sapiens with 6 samples.

Results

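The genes described here are the intergenic and antisense long noncoding RNAs of C4-2, a prostate cancer cell line that descends from LNCaP. They were chosen by name and by level: a name that begins with LINC and a digit, or that ends in -AS with or without a digit, and at least 1 FPKM in at least 1 of 5 columns of expression values. FPKM (fragments per kilobase of transcript, scaled to the mapped fragments of a library) corrects for transcript length, so levels of different genes can be set side by side. Of 837 names with this form, 224 qualified, out of 12934 genes that reached the same level and 28503 lines in the table. Another 343 names lay above 0 but under 1 FPKM, and 270 were listed at 0 in every column. The members comprised 56 of 344 LINC names and 168 of 493 antisense names.

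Long noncoding RNAs are transcripts with no long open reading frame, many of them spliced and polyadenylated like messenger RNA. Intergenic ones lie between protein-coding genes, while antisense ones are transcribed from the strand opposite a named sense gene, either across it or away from a shared promoter region. EZH2 is the catalytic subunit of Polycomb repressive complex 2 (PRC2), which methylates histone H3 at repressed genes, and several long noncoding RNAs have been reported to bind this complex.

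The cells, at passages 10 to 15, received GSK126, astemizole, lentivirus with an EZH2 shRNA, lentivirus with a scramble shRNA, or vehicle. GSK126 blocks the methyltransferase activity of EZH2. Astemizole, an antihistamine, has been reported to disturb the contact between EZH2 and its PRC2 partner EED. The labels list 6 libraries, 1 for each condition and 1 for each of 2 EZH2 hairpins, but the table holds a single EZH2 knockdown column, which is the authors' value. GSK126 and astemizole were set against vehicle and the knockdown against scramble shRNA. With 1 value per condition there is no replicate check and no test, and every ratio describes these libraries only. Doses and treatment times, not given in the sources used here, could not be compared.

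EZH2 itself was listed at 17.5 FPKM with GSK126, 9.48 with astemizole and 3.35 with the knockdown, against 24.6 with scramble shRNA and 26.5 with vehicle. The 7 prostate luminal genes examined here, among them KLK3, KLK2 and HOXB13, were above 1 FPKM in every column. The summed level of 10 liver genes such as ALB and APOA1 was 187 FPKM with GSK126, 5.64 with astemizole and 3.25 with the knockdown, against 2.04 with scramble shRNA and 21.8 with vehicle. The sum was highest with GSK126 and next highest with vehicle. Above 1 FPKM were also APOA1 and TTR with astemizole, TTR with the knockdown and APOA1 with scramble shRNA. Vehicle is the control of GSK126 and astemizole, and the part of these transcripts in the ratios to vehicle below was not tested. Absolute depth is unknown, because FPKM keeps no read totals. Genes above 0 and under 0.5 FPKM in a column and in vehicle shared a most frequent ratio to vehicle. This ratio was 0.949 with GSK126, 1.05 with astemizole, 0.454 in the knockdown column and 0.858 with scramble shRNA. It was held by 289, 258, 117 and 285 genes in the same order. That it gives the relative worth of 1 read is an inference that was not tested, and it is weakest for the knockdown column.

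The 4 members that are printed next are part of those that stood at least 2-fold apart in the same direction in more than 1 comparison. The others, LINC00035 and LINC00571, are not printed. They are shown by their promoters, since the comparisons below return to them. KDM5B-AS1, GPC5-AS1 and AGAP2-AS1 were higher and KDM4A-AS1 was lower. Each line gives the 250 bases before and 50 bases after a RefSeq start site on the gene's own strand, build GRCh38.p14. The windows are chr1:202810704-202811003 on the plus strand for KDM5B-AS1, chr13:92719906-92720205 on the minus strand for GPC5-AS1 (the first of 3 start sites), chr12:57725990-57726289 on the plus strand for AGAP2-AS1 and chr1:43707292-43707591 on the minus strand for KDM4A-AS1. Capitals mark matches, on either strand, to CCAAT (the CCAAT box), to TTTGAA (the core of the cell cycle CHR element), to TTCCCGCC (an E2F site), to TATAAA (the TATA box) or to AGAACA (an arm of the androgen response element). No match overlapped another.

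KDM5B-AS1: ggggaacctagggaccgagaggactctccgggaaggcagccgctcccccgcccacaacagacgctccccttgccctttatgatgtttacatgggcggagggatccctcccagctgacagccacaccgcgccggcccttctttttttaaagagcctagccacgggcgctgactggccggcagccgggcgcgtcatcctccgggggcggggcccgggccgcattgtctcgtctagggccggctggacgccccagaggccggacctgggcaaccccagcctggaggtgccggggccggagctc
GPC5-AS1: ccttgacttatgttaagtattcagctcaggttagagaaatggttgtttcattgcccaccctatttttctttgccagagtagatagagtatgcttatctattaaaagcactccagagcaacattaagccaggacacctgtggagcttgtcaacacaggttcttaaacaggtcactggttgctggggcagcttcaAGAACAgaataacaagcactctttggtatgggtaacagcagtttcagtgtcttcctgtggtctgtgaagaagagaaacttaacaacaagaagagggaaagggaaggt
AGAP2-AS1: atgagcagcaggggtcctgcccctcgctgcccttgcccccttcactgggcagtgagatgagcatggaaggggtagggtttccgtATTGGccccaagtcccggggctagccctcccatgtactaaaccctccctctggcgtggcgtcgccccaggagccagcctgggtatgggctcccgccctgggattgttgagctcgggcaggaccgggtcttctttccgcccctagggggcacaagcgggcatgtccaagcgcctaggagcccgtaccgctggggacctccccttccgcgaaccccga
KDM4A-AS1: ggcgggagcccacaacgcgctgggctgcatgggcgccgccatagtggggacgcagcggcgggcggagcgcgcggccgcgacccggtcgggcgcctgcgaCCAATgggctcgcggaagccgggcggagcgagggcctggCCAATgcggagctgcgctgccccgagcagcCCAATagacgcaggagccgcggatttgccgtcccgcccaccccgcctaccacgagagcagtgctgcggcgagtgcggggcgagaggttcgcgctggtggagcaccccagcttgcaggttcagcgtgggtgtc

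The KDM4A-AS1 window held CCAAT 3 times, beginning at positions −151, −112 and −82 from the start, and the AGAP2-AS1 window held it once on the opposite strand. The GPC5-AS1 window held AGAACA at position −57, and none of the 5 motifs lay in the KDM5B-AS1 window. Of the GPC5-AS1 start sites not printed, site 2 held AGAACA at −38 and site 3 held TTTGAA at −6. The LINC00571 window, also not printed, held CCAAT at −240, TATAAA at −183 and TTTGAA at −93, each on the opposite strand. Its G and C content was 26.3%, below that of every printed window. Across all 35116 RefSeq promoters of this length, 34.6% held CCAAT, 15.2% held TTTGAA, 3.16% held TTCCCGCC, 11.5% held TATAAA and 14.8% held AGAACA. Such matches describe the letters of these windows and do not show that a factor binds. The base composition ranged widely: G and C made up 69.7% of the KDM5B-AS1 window, 42.7% of the GPC5-AS1 window, 66.7% of the AGAP2-AS1 window and 74.3% of the KDM4A-AS1 window, where the median promoter had 58.7%.

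Of the 224 names, 221 were found in RefSeq, 157 as current symbols and 64 as older synonyms. RefSeq lists 200 of them as long noncoding RNA, 4 as antisense RNA, 5 as transcribed pseudogenes and 12 as protein-coding genes. The protein-coding entries include LINC00493, now SMIM26 and coding for a small integral membrane protein, LINC00116, now MTLN and coding for the mitochondrial micropeptide mitoregulin, and MMP24-AS1, now MMP24OS. A further 21 antisense names have since become divergent-transcript names, for example GTSE1-AS1, now GTSE1-DT. The names as deposited therefore cover a few small proteins. Some of the 12 are synonyms of other coding genes, HNRNPU for HNRNPU-AS1 and TMC6 for TNRC6C-AS1, which may not be the transcripts measured. HNRNPU has a line of its own, with a mean of 77.8 FPKM, where HNRNPU-AS1 had 14.8. The values below are given under the deposited names.

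The members were expressed at low levels for the most part. Their median was 3.12 FPKM with GSK126, 3.72 with astemizole, 2.62 with the knockdown, 2.54 with scramble shRNA and 2.90 with vehicle, while the median of all 12934 genes lay at 10.6, 10.1, 9.83, 10.1 and 10.6 FPKM in the same columns. By their highest column, 54 members (24.1%) reached 1 to 2 FPKM, against 9.11% of all genes, and 4 members (1.79%) reached 100 FPKM, against 9.63%. In all 5 columns 153 members held at least 1 FPKM, whereas 26 did so in a single column. The median over members of the mean level was 2.92 FPKM for LINC names and 3.04 FPKM for antisense names. At the limit, LINC00085 reached 1.00, A2M-AS1 1.02 and LINC00266-1 1.03 FPKM in their highest column, and SH3BP5-AS1 with 0.999, KLHL7-AS1 with 0.998 and FEZF1-AS1 with 0.995 fell just outside.

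**Figure D1:**
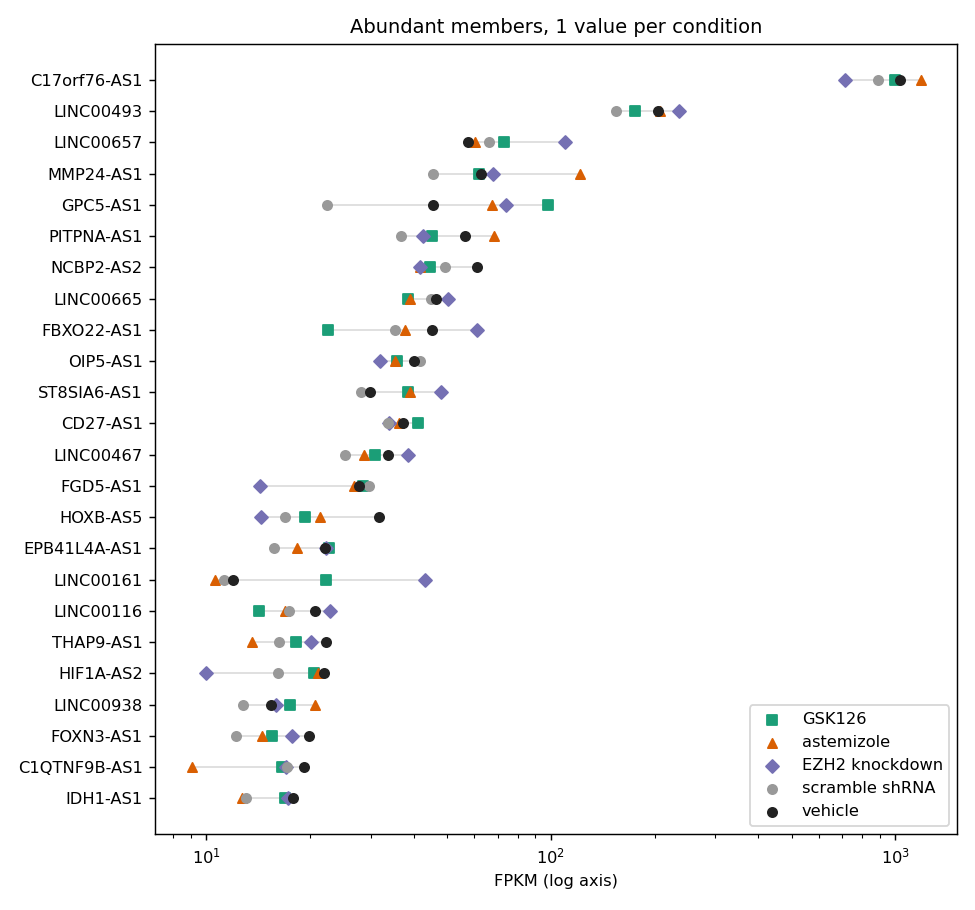
FPKM of abundant members, on a log axis, with 1 point per member and column. C17orf76-AS1 stood alone at 715 to 1187 FPKM, and most of the abundant members had 5 points close together.

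A handful of RNAs made up most of the signal. C17orf76-AS1, now SNHG29 and a host of small nucleolar RNAs, had 999 FPKM with GSK126, 1187 with astemizole and 715 with the knockdown, against 892 with scramble shRNA and 1035 with vehicle. It alone gave between 28.7% (knockdown) and 38% (scramble shRNA) of the summed FPKM of all members. Together the members held 0.355% to 0.408% of the FPKM in a column.

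LINC00493 (SMIM26) followed with 175 FPKM with GSK126, 207 with astemizole and 235 with the knockdown, against 154 with scramble shRNA and 205 with vehicle. LINC00657, known as NORAD, an RNA that binds Pumilio proteins, had 73.2 FPKM with GSK126, 60.3 with astemizole and 110 with the knockdown, against 66.3 with scramble shRNA and 57.6 with vehicle. MMP24-AS1 had 61.8 FPKM with GSK126, 122 with astemizole and 68.0 with the knockdown, against 45.4 with scramble shRNA and 62.6 with vehicle. Each of these RNAs was present in every column, and the highest column differed: the knockdown for LINC00493 and NORAD, astemizole for MMP24-AS1. NORAD in the knockdown stood 0.72 above scramble shRNA on the log2 scale of FPKM + 1, and MMP24-AS1 with astemizole 0.95 above vehicle, both short of 2-fold.

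Of the 53 members at 10 FPKM or more in some column, 47 stayed within 2-fold in all 3 matched comparisons, 24 of them within 0.5 on the log2 scale. The other 6 (11.3%) passed 2-fold at least once, where 13.7% of all genes at that level did. Staying within 0.5 applied to 45.3% of these members and to 50.4% of all such genes. Their highest column was a median 1.70 times their lowest. CD27-AS1, for instance, had 41.3 FPKM with GSK126, 36.2 with astemizole and 33.8 with the knockdown, against 33.7 with scramble shRNA and 37.1 with vehicle. OIP5-AS1, also called Cyrano and known to bind a microRNA, had 35.8 FPKM with GSK126, 35.3 with astemizole and 32.0 with the knockdown, against 41.8 with scramble shRNA and 40.1 with vehicle. Neither RNA moved by more than 0.38 on the log2 scale in a matched comparison.

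The question asked of each treatment is which of these RNAs stood apart from the control once EZH2 was inhibited, disturbed or depleted. A ratio is the log2 of treated over control after 1 FPKM was added to each, and 2-fold is a log2 ratio of 1 or −1. The same ratios helped to choose the members worth describing, so the counts below are a description, from which nothing is read about noncoding RNAs as a class. In the 3 matched comparisons together 28 members (12.5%) passed 2-fold at least once in either direction and 196 never did, where 13% of all genes passed. Of the 95 members that reached 5 FPKM, 9 (9.47%) passed, where 13.6% of all genes at that level did.

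**Figure D2:**
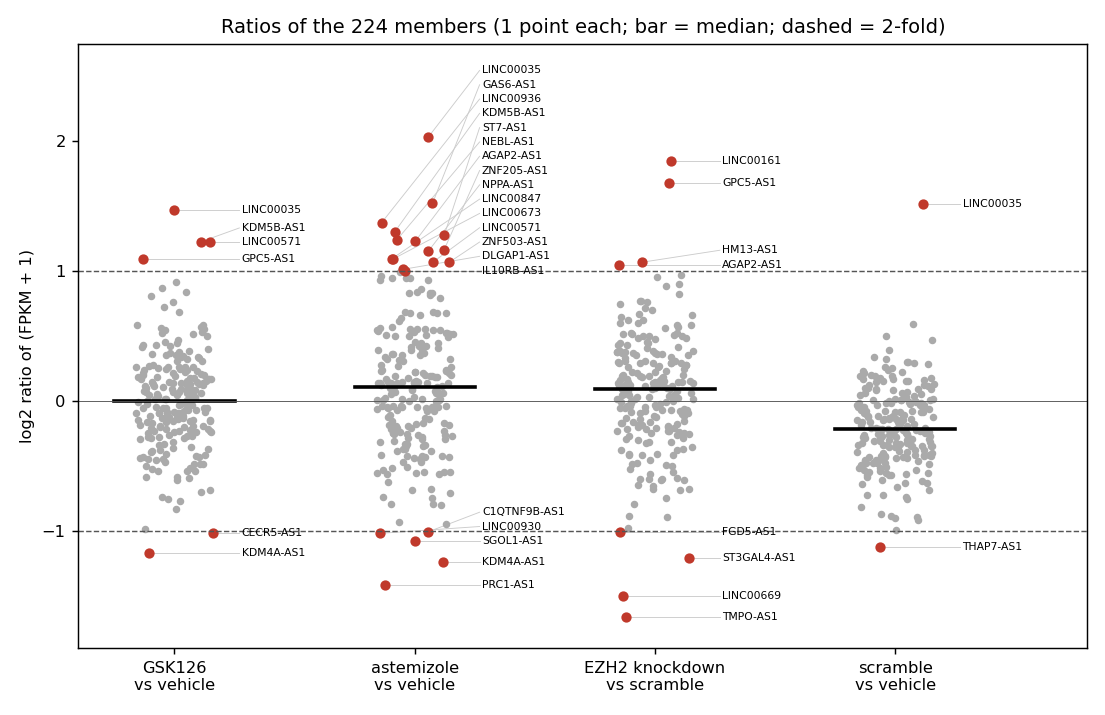
Log2 ratios of FPKM + 1 for the 224 members in the matched comparisons and between the controls, with 1 point per member, the median as a bar and the genes past 2-fold (dashed lines) named in red. Astemizole had the most members past 2-fold, 15 higher and 5 lower.

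With GSK126, 4 members were at least 2-fold higher than with vehicle (GPC5-AS1, KDM5B-AS1, LINC00035 and LINC00571) and 2 were lower (KDM4A-AS1 and CECR5-AS1). That is 1.79% and 0.893% of the members, where 1.05% and 0.951% of all genes passed. The median ratio was 0.01 over the members and −0.04 over all genes. CECR5-AS1 had 0.522 FPKM with GSK126, against 2.07 with vehicle, a ratio of −1.01, and between 1.68 and 2.4 FPKM in the remaining columns. It was low with GSK126 and in no other column. FBXO22-AS1 came close, at 22.5 FPKM with GSK126 against 45.3 with vehicle (−0.98), and LOXL1-AS1 lay at 4.83 FPKM with GSK126 against 2.08 with vehicle (0.92).

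With astemizole, 15 members (6.70%) were at least 2-fold higher than with vehicle and 5 (2.23%) were lower, where 3.53% and 5.5% of all genes passed. The median ratio was 0.11 over the members and −0.06 over all genes. GAS6-AS1, antisense to the gene for the ligand of the TAM receptor kinases, had 1.05 FPKM with GSK126, 6.92 with astemizole and 2.47 with the knockdown, against 0.771 with scramble shRNA and 1.75 with vehicle. Its astemizole ratio was 1.52, while GAS6 itself lay between 4.99 and 6.16 FPKM in all columns. LINC00936 had 1.84 FPKM with GSK126, 4.74 with astemizole and 2.4 with the knockdown, against 0.747 with scramble shRNA and 1.21 with vehicle, an astemizole ratio of 1.38. Both genes had their highest value with astemizole, and in both the knockdown column stood just short of 2-fold above scramble shRNA (0.97 for GAS6-AS1 and 0.96 for LINC00936).

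LINC00847 was the most abundant of the members higher with astemizole, at 11.4 FPKM with GSK126, 20.9 with astemizole and 8.41 with the knockdown, against 7.66 with scramble shRNA and 9.25 with vehicle. ZNF205-AS1 had 2.92 FPKM with GSK126, 8.3 with astemizole and 3.76 with the knockdown, against 3.64 with scramble shRNA and 3.15 with vehicle. For both, astemizole stood above every other column, with ratios to vehicle of 1.10 and 1.17. The other members higher with astemizole were AGAP2-AS1, DLGAP1-AS1, IL10RB-AS1, KDM5B-AS1, LINC00035, LINC00571, LINC00673, NEBL-AS1, NPPA-AS1, ST7-AS1 and ZNF503-AS1. LINC00957, with 5.25 FPKM with astemizole against 2.13 with vehicle, and HOXC-AS5, with 9.60 FPKM with astemizole against 4.48 with vehicle, lay just under 2-fold on this scale.

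The members lower with astemizole were PRC1-AS1, KDM4A-AS1, SGOL1-AS1, LINC00930 and C1QTNF9B-AS1. LINC00930 had 4.78 FPKM with GSK126, 1.56 with astemizole and 2.19 with the knockdown, against 2.35 with scramble shRNA and 4.17 with vehicle. Its astemizole value was the lowest of the columns, with a ratio of −1.01, and scramble shRNA also lay below vehicle (−0.63). C1QTNF9B-AS1, also known as PCOTH, a name that refers to the prostate, had 16.6 FPKM with GSK126, 9.07 with astemizole and 17 with the knockdown, against 17.1 with scramble shRNA and 19.2 with vehicle. It was low with astemizole alone, at a ratio of −1.0, which is at the 2-fold limit.

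In the EZH2 knockdown, 4 members were at least 2-fold higher than with scramble shRNA (LINC00161, GPC5-AS1, HM13-AS1 and AGAP2-AS1) and 4 were lower (TMPO-AS1, LINC00669, ST3GAL4-AS1 and FGD5-AS1). Each count is 1.79% of the members, where 1.94% of all genes were higher and 5.11% lower. The median ratio was 0.10 over the members and 0.03 over all genes. LINC00161 had 22.2 FPKM with GSK126, 10.6 with astemizole and 43.0 with the knockdown, against 11.23 with scramble shRNA and 11.9 with vehicle. It had the largest knockdown ratio of the members, 1.85. The GSK126 value lay 0.84 above vehicle, the astemizole value 0.15 below it, and the controls were nearly equal.

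HM13-AS1 had 1.02 FPKM with GSK126, 1.08 with astemizole and 4.68 with the knockdown, against 1.71 with scramble shRNA and 1.05 with vehicle. It was high in the knockdown column alone (ratio 1.07). LINC00669, now MIR924HG and a microRNA host gene, had 1.32 FPKM with GSK126, 0.583 with astemizole and 0.136 with the knockdown, against 2.20 with scramble shRNA and 2.01 with vehicle, a knockdown ratio of −1.49. FGD5-AS1 had 28.5 FPKM with GSK126, 26.9 with astemizole and 14.3 with the knockdown, against 29.7 with scramble shRNA and 27.7 with vehicle. Of these, FGD5-AS1 was the most abundant, and its ratio of −1.0 is at the limit, with the other 4 columns close together.

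In all, 6 members passed 2-fold in the same direction in more than 1 matched comparison: 5 higher (2.23% of the members) and 1 lower (0.446%), where 0.804% and 3.39% of all genes did so. GSK126 and astemizole share the vehicle column, so a low or high vehicle value alone moves both ratios the same way. For that reason each gene is given beside the difference between the controls. That difference is built from the same control values as the ratios that chose these genes, so it is a description and no independent check. Between scramble shRNA and vehicle 1 member was at least 2-fold higher (LINC00035) and 1 was lower (THAP7-AS1), 0.446% of the members each, where 0.170% and 0.850% of all genes passed. The median of this control ratio was −0.21 over the members and −0.11 over all genes.

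GPC5-AS1, antisense to a glypican gene, had 98.0 FPKM with GSK126, 67.3 with astemizole and 74.0 with the knockdown, against 22.4 with scramble shRNA and 45.4 with vehicle. All 3 treated columns stood above both controls. Its ratios were 1.09 with GSK126, 0.56 with astemizole and 1.68 with the knockdown, but scramble shRNA itself stood 0.99 below vehicle. Set against the other control, the ratios were 2.08, 1.55 and 0.69. Thus the gene was higher in each treated column whichever control was used, and how far depended on the control. GPC5 did not reach 1 FPKM in any column, at 0.184 FPKM with GSK126, 0.314 with astemizole and 0.0835 with the knockdown, against 0 listed with scramble shRNA and 0.0299 with vehicle.

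AGAP2-AS1 had 1.23 FPKM with GSK126, 4.17 with astemizole and 2.34 with the knockdown, against 0.610 with scramble shRNA and 1.20 with vehicle. Astemizole and the knockdown were above both controls, while GSK126 was level with vehicle. The ratios were 0.02 with GSK126, 1.23 with astemizole and 1.05 with the knockdown, and they were 0.47, 1.68 and 0.60 against the other control. The knockdown value therefore passed 2-fold against scramble shRNA and not against vehicle. AGAP2, which codes for a GTPase-activating protein, stayed at or under 0.455 FPKM.

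KDM5B-AS1, now PCAT6, short for prostate cancer associated transcript, lies head to head with KDM5B, the gene of a histone H3 demethylase. It had 3.74 FPKM with GSK126, 4.01 with astemizole and 2.4 with the knockdown, against 2.06 with scramble shRNA and 1.02 with vehicle. Vehicle was the lowest column, scramble shRNA stood 0.60 above it, and the treated columns were higher still. Ratios to the matched control were 1.23, 1.31 and 0.15, whereas those to the other control were 0.63, 0.71 and 0.75. No ratio to the other control reached 2-fold. KDM5B had 19.6 FPKM with GSK126, 13.9 with astemizole and 20.8 with the knockdown, against 13.2 with scramble shRNA and 11.22 with vehicle.

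LINC00035, which RefSeq holds as a synonym of the transcribed pseudogene BICDL3P together with the antisense name ABHD11-AS1, is of uncertain identity. It had 3.86 FPKM with GSK126, 6.19 with astemizole and 1.99 with the knockdown, against 4.02 with scramble shRNA and 0.755 with vehicle. Scramble shRNA, a control, was as high as GSK126, and its ratio to vehicle was 1.52. Against scramble shRNA the GSK126 ratio was −0.05 and the astemizole ratio 0.52, so both calls rest on the vehicle value. LINC00571 had 1.34 FPKM with GSK126, 1.10 with astemizole and 0.663 with the knockdown, against 0.270 with scramble shRNA, and was listed at 0 with vehicle, which is why no fold is given. Its treated columns stood above scramble shRNA too, by 0.88, 0.73 and 0.39, all short of 2-fold.

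KDM4A-AS1 was the single member lower in more than 1 comparison, with 0.711 FPKM with GSK126, 0.633 with astemizole and 1.23 with the knockdown, against 2.38 with scramble shRNA and 2.84 with vehicle. Here the controls were close (−0.18) and each treated column lay below both. Ratios were −1.17 with GSK126, −1.24 with astemizole and −0.60 with the knockdown, and −0.98, −1.05 and −0.79 against the other control. Its sense gene KDM4A, coding for another histone H3 demethylase, had 14.1 FPKM with GSK126, 16.8 with astemizole and 12.7 with the knockdown, against 10.3 with scramble shRNA and 11.3 with vehicle. The sense gene was thus slightly higher in the columns where its antisense RNA was lower, with no ratio past 0.53.

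**Figure D3:**
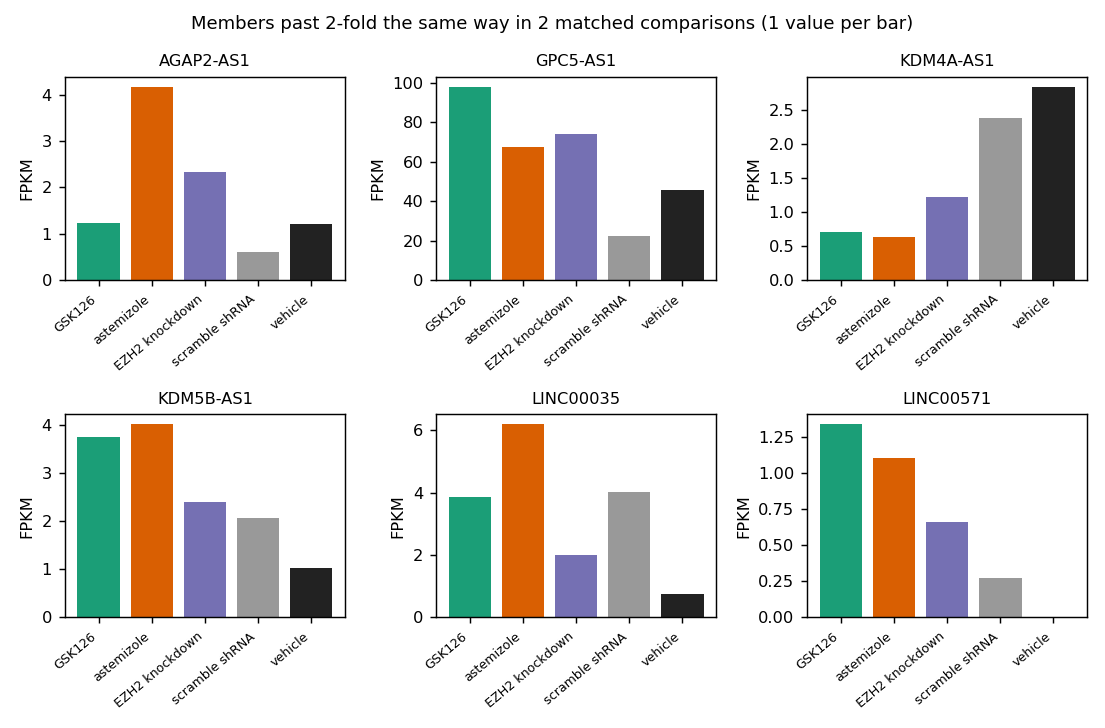
FPKM in the 5 columns for the 6 members past 2-fold in the same direction in more than 1 matched comparison. In each gene but LINC00035 the treated columns lie on 1 side of both controls, though GSK126 is nearly level with vehicle in AGAP2-AS1. In LINC00035 scramble shRNA lies among the treated columns.

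THAP7-AS1, the member that was lower between the controls, had 6.52 FPKM with GSK126, 11.7 with astemizole and 7.5 with the knockdown, against 4.01 with scramble shRNA and 9.89 with vehicle. No treated column passed 2-fold against its own control, and astemizole over scramble shRNA gave 1.34. GPC5-AS1, LINC00853 and LINC00152, now CYTOR, followed at −0.99, −0.91 and −0.90 between the controls. Differences of this size arose without any EZH2 perturbation, between libraries that also differ in lentiviral handling.

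Antisense RNAs share a locus with a sense gene, whose level took no part in choosing the members. For 165 of the 168 antisense members the sense gene was found in the table by name, and in 149 of these pairs it reached 1 FPKM. In the GENCODE annotation, 130 pairs overlap on opposite strands, 27 lie head to head and 7 could not be placed. The remaining pair, HNRNPU-AS1 and HNRNPU, came out on the same strand. RefSeq holds HNRNPU-AS1 as a synonym of HNRNPU, so the lookup may have set HNRNPU against itself, and this pair's arrangement is uncertain. The sense gene was the more abundant partner in 118 pairs and the less abundant in 47, with a median ratio of sense to antisense level of 3.18 over the 165 pairs and 4.47 over the 149. Whether the libraries keep the strand is not stated. Where the genes overlap, reads of a gene and its antisense partner cannot be told apart without it, so the paired values are given as listed.

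FGD5-AS1 and FGD5 form an extreme pair, with FGD5 listed at 0.0237 FPKM in scramble shRNA and at 0 elsewhere. HM13-AS1 is the opposite case: HM13, the gene of signal peptide peptidase, had between 123 and 154 FPKM while its antisense RNA stayed under 5. The knockdown ratio of HM13 was 0.14, where that of HM13-AS1 was 1.07.

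**Figure D4:**
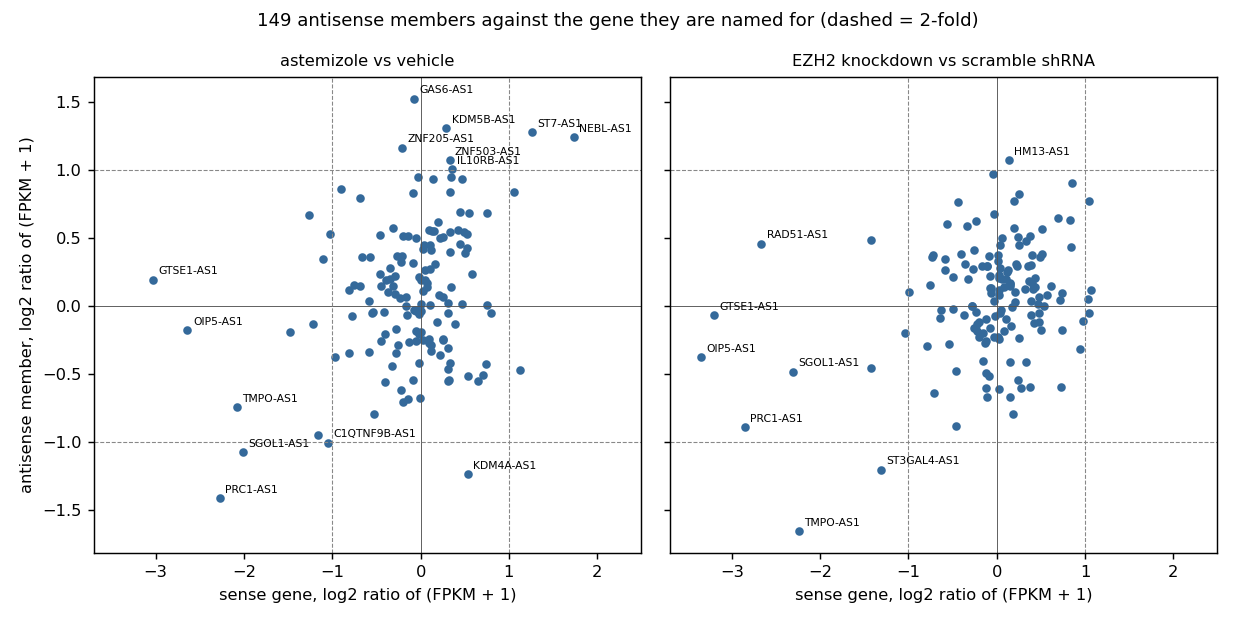
Log2 ratio of FPKM + 1 of each antisense member against that of its sense gene, for astemizole over vehicle and the EZH2 knockdown over scramble shRNA, with 1 point per pair and dashed lines at 2-fold. Pairs past 2-fold on both axes lie in the same direction, and no pair lies past it in opposite directions. Few pairs passed on either axis, so this absence cannot show that partners move together.

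With GSK126, no pair had both partners past 2-fold. With astemizole, both partners were higher in 2 pairs (ST7 and NEBL) and lower in 3 (PRC1, SGOL1 and C1QTNF9B). In another 6 pairs only the antisense RNA passed, and in 11 only the sense gene. In the knockdown, both were lower in 2 pairs (TMPO and ST3GAL4), only the antisense RNA passed in 1 pair and only the sense gene in 12. No pair passed in opposite directions in either comparison, and between the controls no sense gene passed. These counts cover the 149 pairs with the sense gene at 1 FPKM or more. Of their antisense RNAs, 7 were higher and 4 lower with astemizole, beside 4 and 12 sense genes. In the knockdown, 1 antisense RNA was higher and 2 were lower, beside 4 and 10 sense genes. Among all genes, 3.53% were higher and 5.5% lower with astemizole, and 1.94% and 5.11% in the knockdown. With so few past 2-fold, the absence of opposite pairs cannot show that partners move together.

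ST7-AS1 had 2.38 FPKM with GSK126, 4.70 with astemizole and 0.532 with the knockdown, against 0.413 with scramble shRNA and 1.35 with vehicle. ST7 had 73.3 FPKM with GSK126, 95.7 with astemizole and 73.0 with the knockdown, against 34.2 with scramble shRNA and 39.3 with vehicle. The sense gene was higher in every treated column (0.88, 1.26 and 1.07), whereas the antisense RNA followed with astemizole (1.28) and less so with GSK126 (0.52) and the knockdown (0.12). NEBL-AS1 had 2.11 FPKM with astemizole, against 0.315 with vehicle, and NEBL, the nebulette gene, had 7.63 FPKM with astemizole, against 1.59 with vehicle.

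Among the pairs, 8 had a sense gene at least 2-fold lower both with astemizole and in the knockdown: CBR3, GTSE1, OIP5, PRC1, SDCBP2, SGOL1, SLC2A1 and TMPO. This set was drawn after the values were seen. Of all genes, 5.5% were at least 2-fold lower with astemizole, 5.11% in the knockdown and 3.39% in 2 or 3 matched comparisons. No excess is therefore read from these 8 among 149 pairs. Several of the sense genes serve cell division. PRC1 here is the microtubule bundling protein of the spindle midzone and not a Polycomb complex, SGOL1 (shugoshin) protects cohesin at centromeres, OIP5 acts in centromere assembly, GTSE1 is expressed in G2 and S phase, and TMPO codes for lamina-associated polypeptides. In bulk RNA, fewer dividing cells and less of these RNAs per cell cannot be told apart.

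The antisense RNA was at least 2-fold lower as well in 3 of the 8 pairs. PRC1-AS1 had 1.97 FPKM with GSK126, 0.876 with astemizole and 0.460 with the knockdown, against 1.70 with scramble shRNA and 3.99 with vehicle. PRC1 had 30.5 FPKM with GSK126, 9.45 with astemizole and 4.45 with the knockdown, against 38.5 with scramble shRNA and 49.4 with vehicle. Both were lowest in the knockdown, and PRC1-AS1 passed 2-fold with astemizole (−1.41) but not in the knockdown (−0.89). For PRC1-AS1, scramble shRNA stood at −0.88 to vehicle. Against the other control its ratios were −0.53 with astemizole and −1.77 with the knockdown, so which of them passed depended on the control.

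TMPO-AS1 had 1.92 FPKM with GSK126, 1.25 with astemizole and 0.239 with the knockdown, against 2.90 with scramble shRNA and 2.76 with vehicle. TMPO had 44.2 FPKM with GSK126, 17.3 with astemizole and 14 with the knockdown, against 69.9 with scramble shRNA and 76.4 with vehicle. The order of the columns was nearly the same for both, and the knockdown ratio was −1.65 for TMPO-AS1 and −2.24 for TMPO. SGOL1-AS1 had 0.147 FPKM with astemizole, against 1.41 with vehicle, a ratio of −1.07, and 0.240 FPKM with the knockdown, against 0.734 with scramble shRNA, a ratio of −0.48.

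In the other 5 pairs the antisense RNA stayed within 2-fold in both comparisons. OIP5 had 22 FPKM with GSK126, 6.19 with astemizole and 2.14 with the knockdown, against 31.0 with scramble shRNA and 43.9 with vehicle, ratios of −2.64 with astemizole and −3.35 with the knockdown. OIP5-AS1 was level, as given above, with ratios of −0.18 and −0.38. GTSE1 stood at −3.03 with astemizole and −3.20 with the knockdown, while GTSE1-AS1, which lies head to head with it, stood at 0.19 and −0.07. CBR3-AS1 was higher on both counts (0.53 and 0.49) where CBR3, a carbonyl reductase gene, was lower (−1.03 and −1.43). SLC2A1-AS1 stood at 0.67 with astemizole and −0.20 with the knockdown, where SLC2A1, the gene of a glucose transporter, stood at −1.26 and −1.04. Across the 8 pairs a low sense gene thus came with antisense RNAs that were lower, level or higher.

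**Figure D5:**
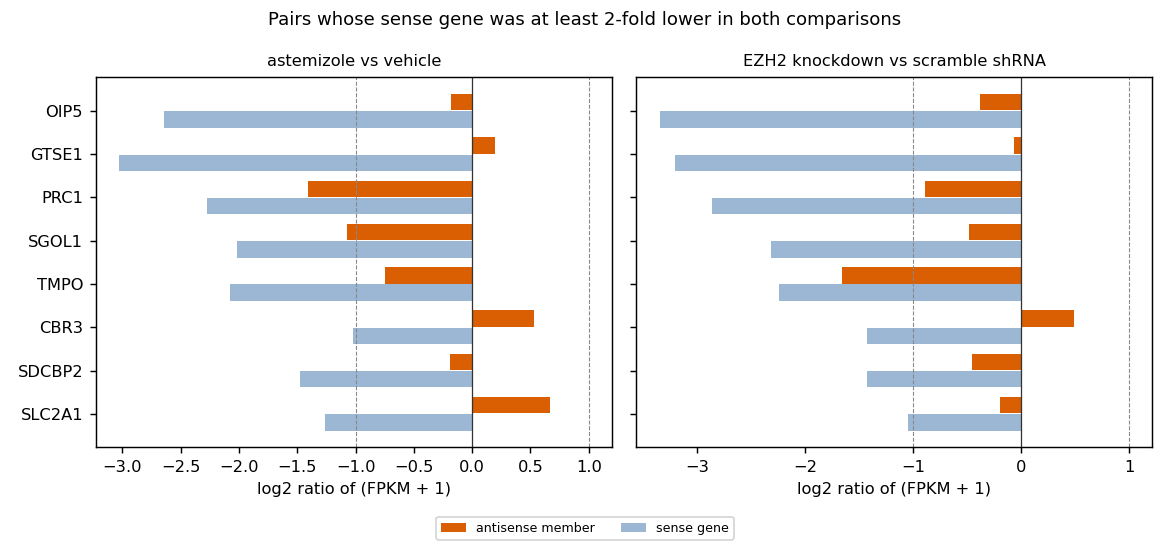
Log2 ratios of FPKM + 1 for the antisense member and the sense gene of the 8 pairs whose sense gene was at least 2-fold lower with astemizole over vehicle and in the EZH2 knockdown over scramble shRNA. Sense bars reach below −1 in each pair, and the antisense bars do so for PRC1-AS1 and SGOL1-AS1 with astemizole and for TMPO-AS1 in the knockdown.

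Pairs that lie head to head and those that overlap were both represented. Of 27 head-to-head pairs, 3 had the antisense RNA and 2 the sense gene past 2-fold in a matched comparison, with 1 pair, ST3GAL4, in which both passed. Overlapping pairs with the sense gene at 1 FPKM or more numbered 115. In 10 of these the antisense RNA passed it and in 20 the sense gene, with 6 pairs in which both passed. Of all genes, 13% passed 2-fold in at least 1 matched comparison. ST3GAL4-AS1, now GSEC, had 11.4 FPKM with GSK126, 5.52 with astemizole and 3.55 with the knockdown, against 9.49 with scramble shRNA and 10.3 with vehicle. ST3GAL4, a sialyltransferase gene, had 19 FPKM with GSK126, 12.4 with astemizole and 6.92 with the knockdown, against 18.7 with scramble shRNA and 18.4 with vehicle. In both genes astemizole and the knockdown were the low columns, with knockdown ratios of −1.20 and −1.32.

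Long noncoding RNAs known from prostate cancer, Polycomb binding, the HOX clusters, p53 and proliferation were examined as lists, which also hold genes outside the naming pattern. Of 26 prostate names 11 were in the table, 5 reached 1 FPKM and 3 were members: KDM5B-AS1, SOCS2-AS1 and TMPO-AS1. One of the 5 was at least 2-fold higher with GSK126 and 1 with astemizole (KDM5B-AS1 in both), and 1 was lower in the knockdown (TMPO-AS1). Over the 12934 genes, the share past 2-fold upward was 1.05% with GSK126, 3.53% with astemizole and 1.94% in the knockdown. Downward it was 0.951%, 5.5% and 5.11% in the same order. The prostate, Polycomb, HOX, p53 and proliferation lists hold too few genes for their counts to be set apart from these shares. The medians of the 5 ratios were 0.01 with GSK126, −0.05 with astemizole and 0.15 with the knockdown. SOCS2-AS1, an androgen-regulated RNA, had 1.23 FPKM with GSK126, 1.35 with astemizole and 0.824 with the knockdown, against 2.36 with scramble shRNA and 1.42 with vehicle, and stayed within 2-fold. PCA3, PCGEM1 and LINC00675 did not reach 1 FPKM.

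Of 18 Polycomb-linked names 16 were in the table and 7 reached 1 FPKM, of which HOXA11-AS, ZEB1-AS1 and LINC00152 were members. None of these members passed 2-fold, and MALAT1, which lies outside the naming pattern, was the gene of the list that did, at 1.26 with astemizole and 1.01 with the knockdown. The medians over the 7 were 0.11 with GSK126, 0.39 with astemizole and 0.21 with the knockdown. HOTAIR, the RNA best known for binding PRC2, was listed at 0 in 4 columns and at 0.0101 FPKM in the knockdown.

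Of 20 HOX names 10 were in the table and 3 reached 1 FPKM, and none passed 2-fold. HOXA11-AS had 2.10 FPKM with GSK126, 3.13 with astemizole and 1.92 with the knockdown, against 1.72 with scramble shRNA and 1.88 with vehicle. HOXC-AS5, now HOXC13-AS, had 4.29 FPKM with GSK126, 9.60 with astemizole and 6.69 with the knockdown, against 3.85 with scramble shRNA and 4.48 with vehicle. Both were highest with astemizole. HOXB-AS5, a member that RefSeq holds as the protein-coding gene PRAC2, was not on the list. Its ratios were −0.68 with GSK126, −0.54 with astemizole and −0.21 with the knockdown, all within 2-fold. In the p53 list, 3 of 11 names reached 1 FPKM and none passed, with NOP14-AS1 as the single member.

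Of 16 proliferation names 14 were in the table and 11 reached 1 FPKM, 7 of them members. One was lower with astemizole (SGOL1-AS1) and 1 in the knockdown (TMPO-AS1), and none was higher. The medians over the 11 were −0.22 with GSK126, −0.38 with astemizole and −0.09 with the knockdown, beside −0.37 between the controls. Of 19 hosts of small nucleolar RNAs 18 reached 1 FPKM, including the members EPB41L4A-AS1 and LINC00338, now SNHG20. Outside the naming pattern, 3 hosts were at least 2-fold lower with astemizole, SNHG1 at −1.22, SNHG15 at −1.09 and SNHG16 at −1.04, beside 5.5% of all genes, while EPB41L4A-AS1 stood at −0.26 and LINC00338 at −0.56. C17orf76-AS1, a host that the list does not include, stood at 0.20. Between the controls the median of the hosts was −0.43, farther from 0 than the −0.30 with GSK126, the −0.31 with astemizole and the −0.01 with the knockdown.

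LINC00086 and LINC00087 were among the names not found in RefSeq, so whether they are now held as coding genes is not known here. They are held to be near-identical copies, but their sequences were not compared here. Reads may have been split between them. LINC00086 had 4.89 FPKM with GSK126, 6.68 with astemizole and 3.31 with the knockdown, against 4.55 with scramble shRNA and 5.92 with vehicle. LINC00087 had 3.08 FPKM with GSK126, 4.15 with astemizole and 1.35 with the knockdown, against 2.47 with scramble shRNA and 3.35 with vehicle. The columns fell in the same order for both, astemizole highest and the knockdown lowest, and neither passed 2-fold.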

How the data were processed

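RNA of C4-2 cells was sequenced on Illumina libraries, per the labels' protocols. The authors deposited 1 table of FPKM values, whose unit the labels name, and TopHat2, Cuffdiff and build hg19 are named without versions, per the submitters' processing notes. Annotation, filters, strand setting and how 2 hairpin libraries became 1 knockdown column were not given in the sources used here. Without read totals no counting interval can be stated.

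Of 28503 lines, 27 with names turned into dates and 1700 names of short RNAs were left out, and genes that reached 1 FPKM in any column were kept. Ratios are log2 of FPKM + 1 (pseudocount 1) and understate changes of low genes. With 1 value per condition no test was made. Only the 2-fold cut was tried on simulated data, made from genes at 5 FPKM or more with vehicle. Lower genes and the other steps were not covered by it. Members and lists were chosen with earlier results of these data known. Named were members at 10 FPKM or more, the 8 highest and 8 lowest ratios per comparison, those past 2-fold in more than 1 comparison or past it after reaching 5 FPKM, list members, sense genes and names at the limit; genes named beyond this, and the set of 8 pairs, were chosen after their values were seen. Likeness between members was not computed, since 5 columns are under the 6 needed for a correlation. Protein-coding names on the lists (3) were dropped, and a few genes that the rule or the marker lists take in are not reported here. A pseudocount of 0.1, no filter, a minimum of 5 FPKM, rescaling each column to TPM and the other control were tried. RefSeq (GRCh38.p14) and GENCODE 29 served for current names, neighbours and promoters only, since their build is not hg19; promoter strands were checked against GENCODE transcripts. Python 3.11.15 with pandas 2.3.3 was used.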

Additional observations from a re-analysis of the deposited data

How the results depend on the processing

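No paired analysis was possible because each condition has 1 value. Counts of members past 2-fold moved by over 1.5 times under most settings, in the order higher and lower. At a pseudocount of 0.1 FPKM they were 12 and 5 with GSK126, 28 and 12 with astemizole, 16 and 15 with the knockdown, 2 and 15 for scramble shRNA over vehicle, and 13 and 7 in more than 1 comparison. Without a filter on low values as well, they were 41 and 23, 57 and 39, 32 and 32, 10 and 43, and 28 and 22. Among members at 5 FPKM or more, they were 2 and 0, 4 and 1, and 2 and 2 in the matched comparisons, and 2 and 0 in more than 1. After rescaling to TPM, 9 were higher with GSK126, 7 higher and 7 lower in the knockdown, 9 higher and 3 lower in more than 1 comparison, and 0 lower between the controls; this rescaling moved the median of all genes by 0.19 with GSK126, 0.04 with astemizole, −0.03 with the knockdown and 0.23 between the controls. Against the other control, 1 was lower with GSK126, 23 higher and 2 lower with astemizole, 2 higher and 10 lower in the knockdown, and 2 higher in more than 1 comparison. The genes then differ: GPC5-AS1 and ST7-AS1 were the higher ones, and LINC00669 took the place of KDM4A-AS1 as the lower one. The cause was not tested, beyond what the smaller or larger set of genes sets by construction. The unknown depth limits what low values can show.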
